A study of Mus musculus with 12 samples.

Results

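The collagen genes of the mouse small-intestinal epithelium were taken as all gene entries whose symbol has the form of a collagen chain (Col, a type number, a and a chain number). There were 44 of them among the 23366 gene entries counted by RNA-seq in 12 libraries, with 3 libraries to a group. Embryonic intestinal cells of stages E12.5 and E14.5 were sorted as EpCAM+ CD31- CD45- DAPI-, a gate that selects live epithelial cells and removes endothelium and blood. ISC libraries held Lgr5-EGFP-high stem cells from adult crypts, and AE libraries held adult villus cells, labelled enterocytes, sorted as EpCAM+ CD31- CD45-. All mice were of a mixed C57BL/6 and CD1 background. The adults were males of postnatal day 60 that carried the Lgr5EGFP-Cre-ERT allele, in which the Lgr5 locus drives EGFP and an inducible Cre. The sex and the genotype of the embryos at that allele were not given in the sources used here. Each E12.5 library came from a pool of 20 embryos and each adult library from 1 gut, and the E14.5 pool size was not given in the sources used here.

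Collagens are built from 3 chains wound into a triple helix, and the type decides where the protein goes. Fibrillar types form the banded fibres of connective tissue, type VI forms beaded filaments beside them, and type IV forms the sheet-like network of the basement membrane on which an epithelium rests. Types VII and XVII tie epithelial cells to that membrane. In the developing gut, fibrillar and type VI collagens are known mainly as products of the mesenchyme that surrounds the epithelial tube.

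The 44 genes were sorted by protein type into 11 fibrillar, 8 basement membrane, 2 epithelial anchoring, 6 beaded filament, 9 fibril-associated, 3 transmembrane (other than Col17a1), 3 short-chain network and 2 other collagens. Levels are TMM-normalised CPM, the read count of a gene scaled to a common library size, and levels of different genes were set against each other only as CPM per kilobase of exon sequence. Of the 44, 38 passed the edgeR filter on low counts and were tested among 15342 genes. A gene high in a single group passes that filter through that group, so counts over tested members are a description. The 6 that did not pass were Col5a3, Col6a6, Col8a2, Col13a1, Col19a1 and Col28a1, and none of these averaged over 0.369 CPM in any group.

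Epithelial markers (Epcam, Cdh1, Vil1, Cdx2, 3 keratins and Cldn7) were present in every group, with summed levels of 2040 ± 182, 3380 ± 70.0, 5480 ± 226 and 12800 ± 1050 CPM in E12.5, E14.5, ISC and AE (SD, n = 3 each). The labels' stage of the 6 embryonic libraries differs between title and age field, so the sign of every E14.5 against E12.5 value rests on the titles. The E12.5 and ISC files list multiply aligned reads, and every E14.5 and AE file lists none. This split in how the files were made cannot be told apart from the group wherever a comparison crosses it, which 3 of the 5 comparisons do. The ISC libraries can be set against E12.5, and the AE libraries against E14.5, without crossing it. At most 4.87% of the 50-base stretches of any member occurred in another gene. Among other marker lists, summed levels in E12.5, E14.5, ISC and AE were 4.47, 5.24, 9.76 and 3.03 CPM for endothelium, 27.1, 31.3, 33.6 and 52.2 CPM for immune cells, and 83.8, 140, 230 and 414 CPM for enteric neural cells. Stem cell markers summed to 30.3, 111, 6620 and 676 CPM and enterocyte markers to 48.6, 157, 445 and 31800 CPM in the same order, highest in the group labelled for each.

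The genomic sequence just before the start site is shown for 8 members whose levels moved in different ways and whose window holds no annotated exon. Col3a1 and Col6a3 were higher at E14.5 than at E12.5. Col5a1, Col11a1, Col27a1, Col4a6 and Col10a1 were lower, and Col7a1 was highest in AE. Each run is the 120 bases that end at the base before the RefSeq start, 5′ to 3′ on the gene's strand, in the GRCm38.p6 build, which is later than the mm9 build named in the submitters' processing notes. Capitals mark 3 motifs on either strand, which are the TATA motif TATAA, then the CAAT motif CCAAT, and the GC motif GGGCGG.
Col3a1, chr1:45311418-45311537, plus strand: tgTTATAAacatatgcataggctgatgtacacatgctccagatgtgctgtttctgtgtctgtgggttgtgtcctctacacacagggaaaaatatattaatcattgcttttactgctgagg
Col6a3, chr1:90843972-90844091, minus strand: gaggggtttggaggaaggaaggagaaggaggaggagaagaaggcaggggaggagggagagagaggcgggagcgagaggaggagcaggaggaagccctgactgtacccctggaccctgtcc
Col5a1, chr2:27886305-27886424, plus strand: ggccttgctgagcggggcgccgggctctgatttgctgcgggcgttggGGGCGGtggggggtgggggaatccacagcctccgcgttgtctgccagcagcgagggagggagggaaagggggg
Col11a1, chr3:114030420-114030539, plus strand: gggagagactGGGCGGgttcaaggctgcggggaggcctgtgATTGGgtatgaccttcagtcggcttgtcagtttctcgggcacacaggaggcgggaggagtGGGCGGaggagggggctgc
Col27a1, chr4:63215292-63215411, plus strand: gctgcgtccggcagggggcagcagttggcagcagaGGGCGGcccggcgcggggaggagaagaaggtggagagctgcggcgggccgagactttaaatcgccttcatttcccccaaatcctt
Col4a6, chrX:141474077-141474196, minus strand: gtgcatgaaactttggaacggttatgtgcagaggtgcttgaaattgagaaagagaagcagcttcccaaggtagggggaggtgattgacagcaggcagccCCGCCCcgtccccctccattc
Col10a1, chr10:34389861-34389980, plus strand: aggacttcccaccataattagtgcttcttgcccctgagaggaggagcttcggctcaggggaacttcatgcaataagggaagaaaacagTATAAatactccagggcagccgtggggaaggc
Col7a1, chr9:108953466-108953585, plus strand: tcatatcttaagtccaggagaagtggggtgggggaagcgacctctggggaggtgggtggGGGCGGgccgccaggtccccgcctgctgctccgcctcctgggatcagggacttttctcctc

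Among these windows, Col10a1 held a TATAA whose first base lies 32 bases before the start, and Col3a1 held that motif on both strands, overlapping near the far end of its window, from 118 bases before the start. GGGCGG or its reverse complement stood in the windows of Col5a1, Col11a1, Col27a1, Col4a6 and Col7a1, and Col6a3 held none of the 3 motifs. RefSeq promoters were found for 35 of the 44 collagen genes, 38 windows in all. GGGCGG occurred in 18 of the 38 (47.4%) and in 26.5% of 32851 windows of the same length from all genes. CCAAT occurred in 15.8% and 21.3%, and TATAA in 7.89% and 11.8%, of collagen windows and of all windows. These matches are a description of letters in the window.

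Seen over the whole course, collagen transcripts were abundant in the embryonic libraries and scarce in the adult ones. The 44 genes summed to 480 ± 32.5 CPM at E12.5, 371 ± 31.5 at E14.5, 32.8 ± 2.13 in ISC and 33.0 ± 0.853 in AE (SD, n = 3 each). The highest of the 4 group means lay at E12.5 for 17 members and at E14.5 for 18. ISC held the highest mean of 3 members (Col4a3, Col9a1 and Col19a1) and AE of 6 (Col6a5, Col7a1, Col8a1, Col15a1, Col17a1 and Col20a1). Several of these leads were slight or were not called. Col9a1 averaged 0.968 CPM in ISC and 0.945 at E12.5, and Col15a1 0.595 CPM in both AE and E14.5. Col6a5 averaged 1.33 CPM in AE and 1.24 at E12.5, and Col19a1, not tested, had 3 counts over the ISC libraries. Col20a1 averaged 6.81 CPM in AE and 6.3 in ISC, and Col8a1 0.755 and 0.702 CPM, with neither called between these groups. Col17a1 averaged 2.57 CPM in AE and 2.17 at E14.5, with no call between them. Col4a3 averaged 3.56 CPM in ISC and 2.27 in AE, also with no call. Members that averaged at least 1 CPM numbered 29 at E12.5, 27 at E14.5, 9 in ISC and 11 in AE. Counts of 0 in all 3 libraries were met for 8 members in ISC and 5 in AE, against 1 at E12.5 and none at E14.5. A count of 0 allows up to 0.0371 CPM at E12.5, 0.0263 at E14.5, 0.0525 in ISC and 0.0606 in AE, from 3 counts over a group's libraries and for counting error only.

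**Figure D1:**
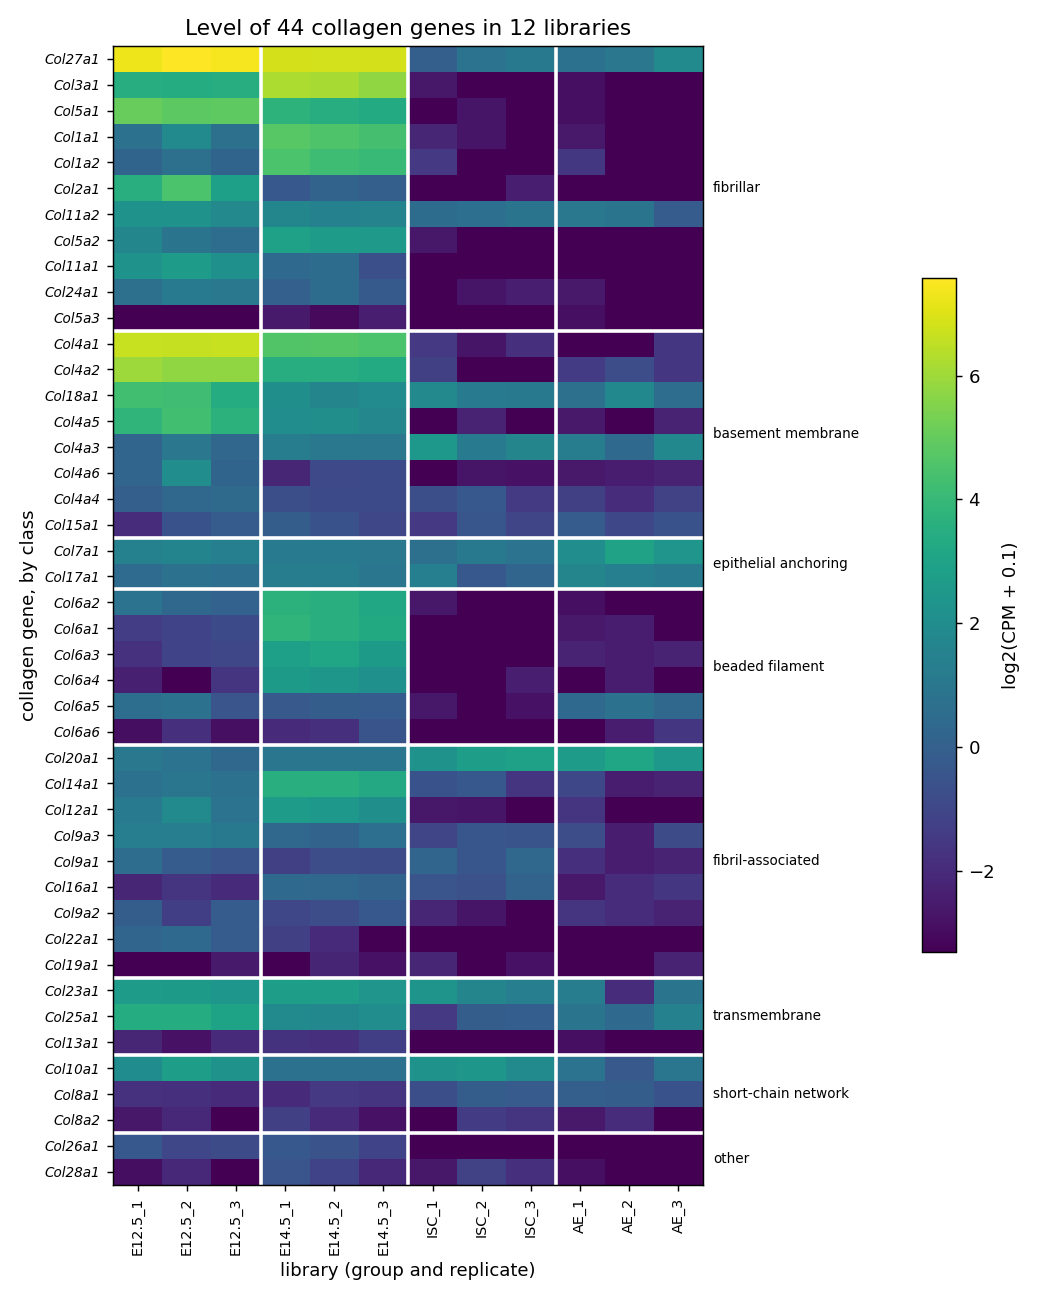
Level of each of the 44 collagen genes (rows, by class and from high to low mean CPM within it) in each of the 12 libraries (columns), as log2(CPM + 0.1). The highest levels lie in the 6 embryonic libraries, and 9 rows have their highest group mean in ISC (Col4a3, Col9a1 and Col19a1) or in AE (Col6a5, Col7a1, Col8a1, Col15a1, Col17a1 and Col20a1). For Col6a5, Col9a1, Col15a1 and Col19a1 that lead is slight or rests on few counts. For Col4a3, Col8a1, Col17a1 and Col20a1 it was not called against the group with the next highest mean.

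The make-up of the family also differed between groups. Per kilobase, fibrillar chains made up 47.5 ± 2.3% of the family at E12.5, 66.0 ± 0.237% at E14.5, 7.97 ± 1.65% in ISC and 10.8 ± 0.912% in AE. Basement membrane chains made up 41.8 ± 2.18% at E12.5, 11.9 ± 0.422% at E14.5, 15.5 ± 4.23% in ISC and 14.7 ± 1.24% in AE. Beaded filament chains stood at 0.688 ± 0.0821% at E12.5 and reached 10.6 ± 0.760% at E14.5, before 0.183 ± 0.159% in ISC and 3.40 ± 0.684% in AE. Epithelial anchoring chains took 0.782 ± 0.0341%, 1.06 ± 0.0621%, 7.14 ± 1.97% and 19.9 ± 3.83% along the same course. Fibril-associated chains took 30.9 ± 6.16% in ISC and 29.9 ± 4.15% in AE, and short-chain network chains 26.2 ± 4.21% in ISC and 11.6 ± 2.96% in AE. In ISC the ranges of these 2 classes overlapped. The shares were 24.7% and 24.6% in replicate 1, 31.2% and 31.0% in replicate 2, and 37.0% and 23.0% in replicate 3. Shares add to a whole, so a higher share of one class lowers the others without any change in their level.

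**Figure D2:**
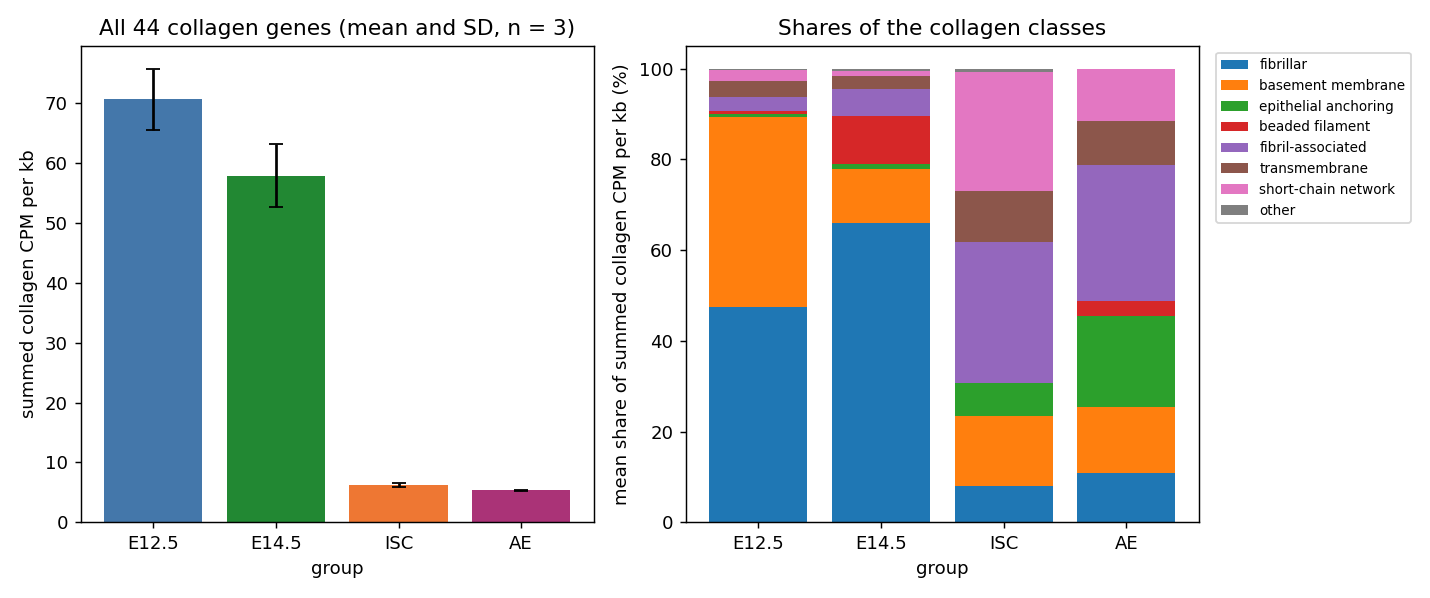
Left, summed level of all 44 collagen genes in CPM per kilobase (bars, mean of 3 libraries, error bars SD) in E12.5, E14.5, ISC and AE. Right, mean share of each collagen class in that sum (percent). The fibrillar and basement membrane classes fill most of the embryonic bars. The fibril-associated class is the largest in both adult bars, followed by the short-chain network class in ISC and the epithelial anchoring class in AE.

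Between E12.5 and E14.5 the family split. Of the 38 members tested, 11 were higher and 16 lower at E14.5 by edgeR's quasi-likelihood test with Benjamini-Hochberg adjustment, and 11 were not called. Over all genes tested, 23.6% were called higher and 25.6% lower. The median log2 fold change was -0.35 over the members and -0.02 over all genes. By class, the calls fell to opposite sides, since 4 of 5 tested beaded filament chains rose and none fell, and 6 of 8 basement membrane chains fell and none rose. Fibrillar chains were divided, with 4 of 10 higher and 5 lower, as were fibril-associated chains, with 3 of 8 higher and 3 lower.

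The fibrillar chains that rose were those of types I and III, the main fibres of connective tissue, and the second chain of type V. Col3a1 had 75.7, 72.0 and 55.2 CPM in the E14.5 libraries, against 10.9, 10.5 and 11 CPM in the E12.5 libraries. Col1a1 had 26.9, 23.5 and 20.4 CPM at E14.5, against 1.6, 3.46 and 1.54 CPM at E12.5. Col1a2, its partner in type I collagen, had 22.1, 18.4 and 16.5 CPM at E14.5, against 1.03, 1.51 and 1.03 CPM at E12.5. In all 3 genes the E14.5 libraries lay above every E12.5 library, and replicate 3 was the lowest of the E14.5 libraries. The fold was 6.27 for Col3a1 (log2 2.65, SE 0.165, edgeR adjusted p = 4.29e-08), 10.9 for Col1a1 (edgeR adjusted p = 7.80e-07) and 16.1 for Col1a2 (edgeR adjusted p = 1.04e-06). Col5a2 had 7.40, 6.48 and 5.63 CPM at E14.5, against 3.11, 1.73 and 1.39 CPM at E12.5, a 3.10-fold rise (edgeR adjusted p = 0.00107).

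The 3 highest folds were those of type VI chains, Col6a4, Col6a1 and Col6a3. Col6a1 had 13.9, 11.6 and 9.62 CPM at E14.5, against 0.289, 0.355 and 0.440 CPM at E12.5, a 32.3-fold rise (log2 5.01, SE 0.283, edgeR adjusted p = 8.27e-08). Col6a2 had 12.7, 11.5 and 8.88 CPM at E14.5, against 1.70, 1.15 and 0.991 CPM at E12.5, and rose 8.52-fold (edgeR adjusted p = 8.03e-07). Col6a3, the longest of the classical chains, had 7.03, 8.31 and 6.02 CPM at E14.5, against 0.193, 0.355 and 0.404 CPM at E12.5, and rose 22.6-fold (edgeR adjusted p = 3.24e-07). The 3 chains that assemble into classical type VI collagen were therefore all higher, with no overlap between the stages. Col6a4, which can take the place of Col6a3, had 6.11, 5.37 and 4.35 CPM at E14.5, against 0.0963, 0 and 0.220 CPM at E12.5, and rose 45.9-fold on 9 counts at E12.5 (edgeR adjusted p = 1.78e-06). Col6a5, of the same kind, was not called, at 0.778 ± 0.0498 CPM at E14.5 and 1.24 ± 0.540 CPM at E12.5 (SD, n = 3 each).

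Fibril-associated chains, which bind to the surface of fibres, were also among those that rose. Col14a1 had 11.8, 11.3 and 9.54 CPM at E14.5, against 1.64, 1.87 and 1.65 CPM at E12.5, and rose 6.34-fold (edgeR adjusted p = 4.61e-06). Col12a1 had 6.4, 5.44 and 4.26 CPM at E14.5, against 2.15, 3.55 and 1.69 CPM at E12.5, and rose 2.21-fold (edgeR adjusted p = 0.0137). The Col12a1 call was lost without E12.5 replicate 1, E12.5 replicate 3 or E14.5 replicate 1, at edgeR adjusted p from 0.0533 to 0.0748. Col16a1 rose 6.79-fold, at 1.12 ± 0.106 CPM at E14.5 and 0.166 ± 0.0497 CPM at E12.5.

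Markers of mesenchyme and smooth muscle moved in the same comparison. Of 21 such markers, none a collagen, 18 were tested, and 16 of these were higher and none lower at E14.5, with a median log2 fold change of 2.26. With Fbln1 left out, which was abundant in every group, the other 20 markers summed to 226, 242 and 182 CPM in the E14.5 libraries, against 21.1, 23.8 and 28.6 CPM in the E12.5 libraries. That omission was chosen after the values were seen. With Fbln1 the sums were 296 to 365 CPM at E14.5 and 164 to 187 CPM at E12.5. Acta2, encoding smooth muscle actin, averaged 65.7 ± 10.1 CPM at E14.5 and 4.89 ± 1.36 CPM at E12.5, while Twist1 and Twist2 had at most 5 counts over the 3 libraries of either stage. Mesothelial markers summed to 26.2 ± 1.10 CPM at E14.5 and 6.85 ± 1.79 CPM at E12.5, with Upk3b at 21.6 ± 1.14 CPM at E14.5 and 3.91 ± 1.06 CPM at E12.5. All 11 collagen genes called higher were lowest in replicate 3 of the 3 E14.5 libraries, as was the marker sum. Replicate 1 was highest for 10 of the 11, whereas the marker sum was highest in replicate 2. The mesothelial markers summed to 25.1, 26.2 and 27.3 CPM in E14.5 replicates 1, 2 and 3. The share of all genes lowest in replicate 3 was not computed. Of the 16 called lower, 8 were lowest in replicate 3. Reads listed on no counted feature made up 39.3% to 40.5% of all counts listed at E14.5 and 46.2% to 58.1% at E12.5 (46.0% to 47.2% in ISC and 33.4% to 39.0% in AE). The part of mesenchymal cells and of this difference between libraries in these levels was not tested, and in bulk samples fewer cells of a type and less RNA per cell cannot be told apart.

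**Figure D3:**
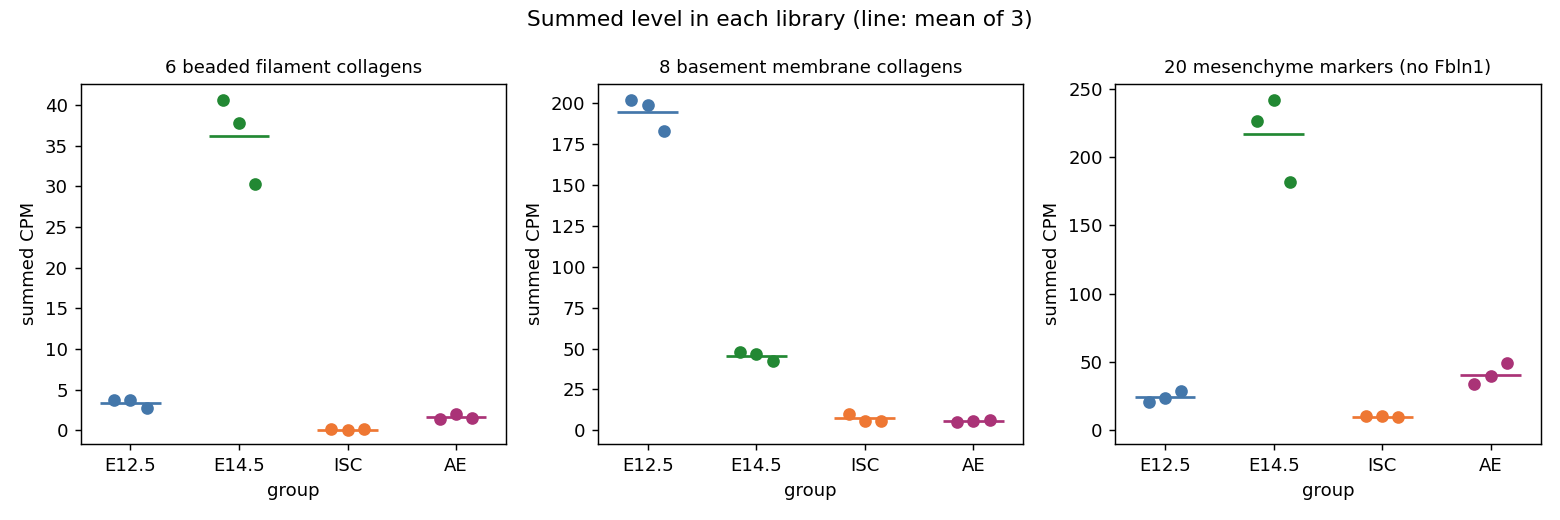
Summed CPM in each library (points) and the mean of 3 (lines) for the 6 beaded filament collagens, the 8 basement membrane collagens and 20 mesenchyme and smooth muscle markers without Fbln1, in E12.5, E14.5, ISC and AE. The beaded filament sum and this reduced marker sum are highest in the 3 E14.5 libraries (with Fbln1, 1 AE library at 299 CPM lies above the lowest E14.5 library at 296 CPM), and the basement membrane sum is highest in the 3 E12.5 libraries.

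The basement membrane chains moved the other way. Col4a1 had 24.6, 25.3 and 22.5 CPM at E14.5, against 102, 99.1 and 100 CPM at E12.5, a 4.16-fold fall (log2 -2.06, SE 0.173, edgeR adjusted p = 5.41e-07). Col4a2, which joins it in the common type IV trimer, had 11.1, 11.1 and 9.98 CPM at E14.5, against 62.7, 54.4 and 54.8 CPM at E12.5, a 5.34-fold fall (edgeR adjusted p = 1.39e-06). Replicates of each stage lay close together for both genes, and the stages did not overlap. Per kilobase, Col4a1 exceeded Col4a2 by a ratio of 2.20 ± 0.0338 at E14.5 and 1.72 ± 0.108 at E12.5 (SD, n = 3 each).

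Col4a5, best known from the collagen of the kidney filter, had 3.99, 4.06 and 3.21 CPM at E14.5, against 14.0, 19.5 and 12.7 CPM at E12.5, and fell 4.07-fold (edgeR adjusted p = 1.60e-05). Col4a6 had 0.125, 0.429 and 0.439 CPM at E14.5, against 1.06, 3.91 and 1.03 CPM at E12.5, and fell 5.97-fold (edgeR adjusted p = 0.00193). Its E12.5 mean was raised by replicate 2. Col4a4 had 0.523, 0.449 and 0.439 CPM at E14.5, against 0.898, 1.15 and 1.25 CPM at E12.5, and fell 2.31-fold (edgeR adjusted p = 0.0110), a call lost without E14.5 replicate 2 (edgeR adjusted p = 0.0526). Col4a3 went against the other type IV chains in sign but was not called, with 2.29, 1.97 and 1.89 CPM at E14.5, against 1.09, 1.91 and 1.10 CPM at E12.5 (edgeR adjusted p = 0.202). Col18a1, a heparan sulfate-bearing collagen from whose end endostatin is cut, had 4.21, 3.04 and 3.74 CPM at E14.5, against 19.3, 18.7 and 10.7 CPM at E12.5, a 4.44-fold fall (edgeR adjusted p = 5.01e-05). Its relative Col15a1 was not called, at 0.595 ± 0.215 CPM at E14.5 and 0.515 ± 0.328 CPM at E12.5.

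Fibrillar chains best known from cartilage, and the first chain of type V, also fell. Col2a1, the main collagen of cartilage, had 0.698, 1.01 and 0.879 CPM at E14.5, against 11.3, 22.2 and 7.08 CPM at E12.5, a 15.5-fold fall (log2 -3.95, SE 0.426, edgeR adjusted p = 1.38e-05). Col11a1, which joins type II fibres, had 1.22, 1.35 and 0.527 CPM at E14.5, against 4.75, 6.44 and 4.40 CPM at E12.5, and fell 4.82-fold (edgeR adjusted p = 0.000436). Both were highest in E12.5 replicate 2. Col11a2 was not called, at 2.86 ± 0.205 CPM at E14.5 and 4.21 ± 0.723 CPM at E12.5 (edgeR adjusted p = 0.0704). Col5a1, which starts the assembly of type I fibres, had 13, 10.9 and 9.89 CPM at E14.5, against 32.9, 28.8 and 29.5 CPM at E12.5, and fell 2.69-fold (edgeR adjusted p = 1.13e-05). Its partner Col5a2 rose, so that Col5a1 over Col5a2 per kilobase was 1.37 ± 0.0372 at E14.5 and 12.7 ± 4.18 at E12.5 (SD, n = 3 each).

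Col27a1, a fibrillar collagen of an evolutionarily distinct branch, was the most abundant member per kilobase at both stages. It had 118, 115 and 116 CPM at E14.5, against 158, 191 and 174 CPM at E12.5. The E14.5 libraries agreed closely and lay below all E12.5 libraries, a 1.5-fold fall (log2 -0.58, SE 0.180, edgeR adjusted p = 0.0161). The call was lost without E12.5 replicate 2 or without any of the 3 E14.5 replicates, at edgeR adjusted p from 0.0526 to 0.0700. Per kilobase, Col27a1 led at 15.3 ± 0.162 at E14.5, with Col3a1 at 12.2 ± 1.97 and Col1a1 at 3.98 ± 0.549, and at 22.9 ± 2.15 at E12.5, with Col4a1 at 15.2 ± 0.257 and Col4a2 at 8.89 ± 0.725. The intervals of mean and SD did not overlap between Col27a1 and Col3a1 at E14.5, nor between Col27a1 and Col4a1 at E12.5.

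**Figure D4:**
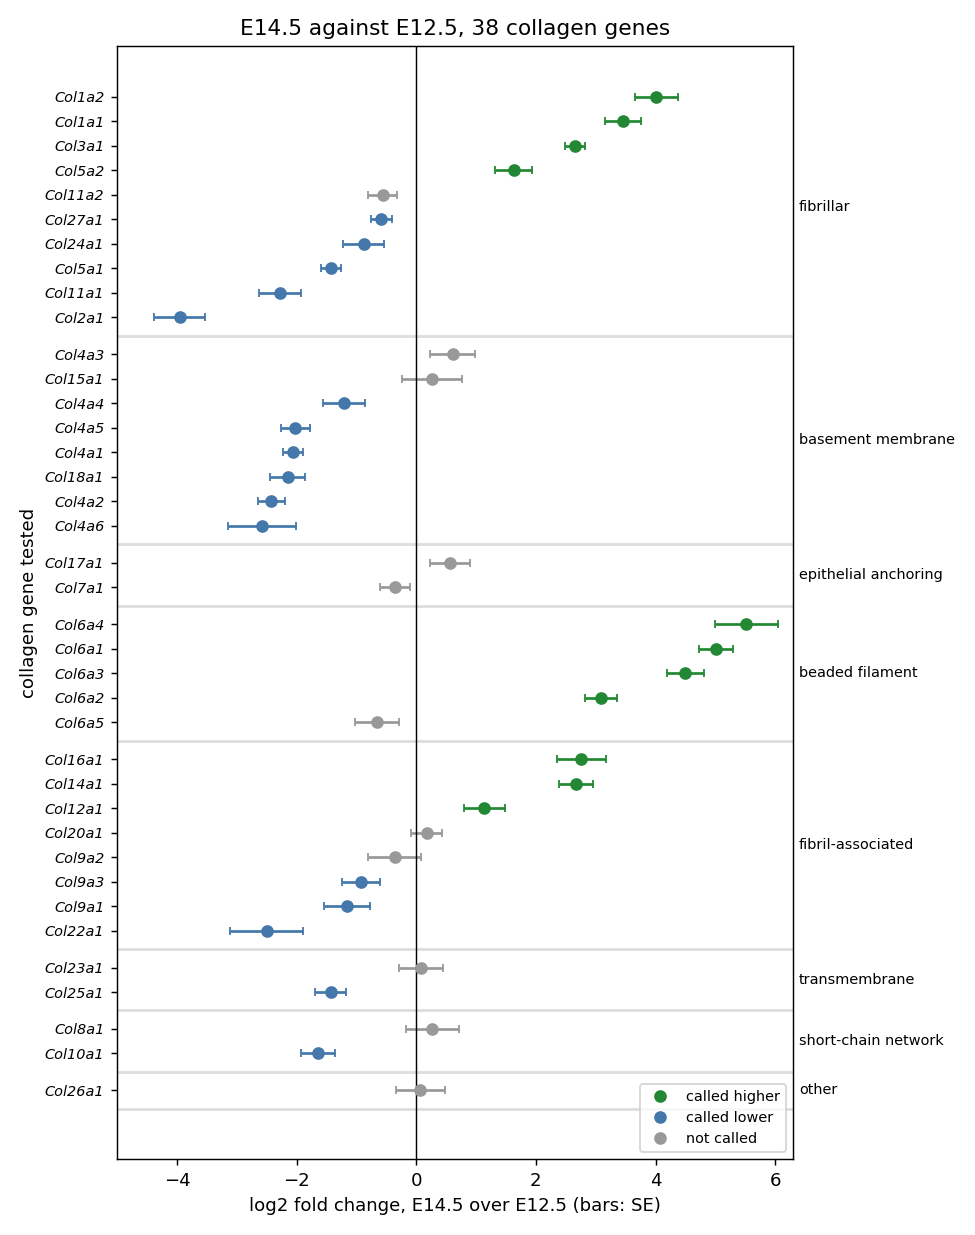
Log2 fold change of E14.5 over E12.5 (points, bars SE) for the 38 collagen genes tested, by class. Green points were called higher, blue points lower and grey points neither. Col6a4, Col6a1 and Col6a3 lie furthest to the right, and the type IV chains other than Col4a3 lie left of 0.

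Among the remaining classes, Col25a1, a transmembrane collagen known from neurons, had 3.54, 3.28 and 4.0 CPM at E14.5, against 10.6, 10.5 and 7.89 CPM at E12.5, and fell 2.69-fold (edgeR adjusted p = 0.000499). Col23a1, also transmembrane, was not called, with 6.83, 6.81 and 5.05 CPM at E14.5, against 6.48, 6.08 and 5.21 CPM at E12.5. Col10a1, the collagen of hypertrophic cartilage, had 1.64, 1.62 and 1.63 CPM at E14.5, against 3.82, 6.84 and 4.70 CPM at E12.5, and fell 3.12-fold (edgeR adjusted p = 0.000308). Its gene lies within Nt5dc1 on the opposite strand, and 18 of its exon bases (0.575%) overlap exons of that gene. The strand setting of the counting is not given, so any unspliced Nt5dc1 reads over Col10a1 exons would be counted with it, here and in the adult comparisons. Col22a1, Col24a1, Col9a1 and Col9a3 also fell, 1.84 to 5.66-fold, each with a mean of at most 2.3 CPM at E12.5. The anchoring chains were not called. Col7a1 had 2.07, 2.22 and 1.98 CPM at E14.5, against 2.63, 2.89 and 2.49 CPM at E12.5, and Col17a1 had 2.29, 2.38 and 1.85 CPM at E14.5, against 1.32, 1.6 and 1.5 CPM at E12.5.

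Position on the chromosomes offers a view the naming rule did not use. In the RefSeq gene table, 8 pairs of collagen genes are neighbours with no other protein-coding gene starting between them. Both genes were tested in 6 of them. In 4 of the 6, both genes were called in the same direction at E14.5, higher for Col3a1 with Col5a2 and for Col6a1 with Col6a2, lower for Col4a1 with Col4a2 and for Col4a5 with Col4a6. No collagen pair had opposite calls. Of all 10137 neighbouring pairs with both genes tested, 15.7% were called in the same direction and 9.87% in opposite directions, and with 6 pairs this is a description. The start sites of Col4a1 and Col4a2, on opposite strands of chromosome 8, lie 21 bases apart, and those of Col4a5 and Col4a6 on the X chromosome 1343 bases apart. The chains of type I, Col1a1 on chromosome 11 and Col1a2 on chromosome 6, rose together without being neighbours.

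In adult stem cells most collagens were at or near the limit of detection. Against E14.5, 26 of the 38 tested members were lower and 4 higher in ISC by edgeR, with 8 not called. Over all genes tested, 30.6% were called lower and 30.2% higher. The median log2 fold change was -4.37 over the members and -0.01 over all genes. With members at 0 counts set at their bound, the members' median was -3.81. As to class, all 10 tested fibrillar chains and all 5 tested beaded filament chains were lower. Against E12.5, a comparison within the split in read listing, 27 members were lower, 4 higher and 7 not called, where 34.6% of all genes tested were lower and 33.9% higher. The median log2 fold change there was -4.46 over the members, or -3.45 at the bounds, and -0.01 over all genes. Both comparisons use the same ISC libraries.

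The fibrillar chains of types I, II, III and V and Col11a1 were at or near 0 in ISC, whereas Col11a2 and Col27a1 were not. Col3a1 had 1 count over the 3 ISC libraries, at 0.0634, 0 and 0 CPM, against the 55.2 to 75.7 CPM of the E14.5 libraries, a ratio of 4000 with an exact 95% counting interval of 717 to 158000. Col1a1 had 0.127, 0.0545 and 0 CPM in ISC and Col1a2 had 0.253, 0 and 0 CPM. Col5a1 was at 0, 0.0545 and 0 CPM, Col5a2 at 0.0634, 0 and 0 CPM, Col2a1 at 0, 0 and 0.0870 CPM, and Col11a1 at 0 in all 3 libraries. Each of these stood on 0 to 4 counts in ISC. Col6a1 and Col6a3 had no count in ISC and were at least 229-fold and at least 141-fold lower than at E14.5. Col6a2 had 1 count and Col6a4 had 2, at 0.0634, 0 and 0 CPM and at 0, 0 and 0.0870 CPM.

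Col4a1 and Col4a2 were also close to 0. Col4a1 had 0.253, 0.0545 and 0.174 CPM in ISC and was 149-fold lower than at E14.5 (edgeR adjusted p = 1.34e-10) and 619-fold lower than at E12.5 (edgeR adjusted p = 5.19e-12). Col4a2 had 0.317, 0 and 0 CPM, on 5 counts, and was 115-fold lower than at E14.5 and 616-fold lower than at E12.5. Col4a5 had 0, 0.109 and 0 CPM, and Col4a6 had 0, 0.0545 and 0.0435 CPM. Col4a3 and Col4a4, which pair with Col4a5 in another type IV trimer, fell less or not at all. Col4a3 had 5.45, 2.18 and 3.04 CPM in ISC and was 2.61-fold higher than at E12.5 (edgeR adjusted p = 0.00522), with no call against E14.5 (edgeR adjusted p = 0.0783). Col4a4 had 0.507, 0.708 and 0.261 CPM in ISC and was 2.27-fold lower than at E12.5 (edgeR adjusted p = 0.0131), a call lost without ISC replicate 3 (edgeR adjusted p = 0.0612). Col4a3 shares 4.66% of its sequence with an overlapping gene on the opposite strand, C430014B12Rik, so its reads are not wholly its own.

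Col27a1, the leading embryonic chain, had 0.887, 1.69 and 2.00 CPM in ISC, against 115 to 118 CPM at E14.5, and fell 73.9-fold (log2 -6.21, SE 0.250, edgeR adjusted p = 7.64e-11). Col27a1 and Col11a2 were the fibrillar chains counted in every ISC library. Col11a2 had 1.33, 1.47 and 1.74 CPM in ISC, against a mean of 2.86 ± 0.205 CPM at E14.5, and was 1.87-fold lower (edgeR adjusted p = 0.00936). Col18a1 had 3.42, 2.18 and 2.04 CPM in ISC and was not called against E14.5 (edgeR adjusted p = 0.169). Against E12.5 it was 6.44-fold lower (edgeR adjusted p = 4.25e-06). Col14a1 had 0.570, 0.708 and 0.217 CPM in ISC and was 22.5-fold lower than at E14.5 (edgeR adjusted p = 6.39e-08). Col12a1 had 0.0634, 0.0545 and 0 CPM, and Col25a1 had 0.253, 0.817 and 0.870 CPM, 5.31-fold lower than at E14.5 (edgeR adjusted p = 2.61e-05). The 21 mesenchyme markers summed to 39.7 to 45.1 CPM in ISC, against 296 to 365 CPM at E14.5. Without Fbln1 the sums were 9.74 to 10.4 CPM in ISC and 182 to 242 CPM at E14.5, and Des, Lum, Twist1, Twist2, Foxf2, Mfap4 and Nkx2-3 had no count there.

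A small set rose in stem cells. Col20a1, a fibril-associated collagen, had 4.75, 6.75 and 7.39 CPM in ISC, against 1.82, 1.85 and 1.85 CPM at E14.5, and was 3.43-fold higher (log2 1.78, SE 0.245, edgeR adjusted p = 2.34e-05). Against E12.5, where it had 1.99, 1.69 and 1.17 CPM, it was 3.90-fold higher in ISC (edgeR adjusted p = 9.03e-06). Col10a1 had 4.69, 5.28 and 3.57 CPM in ISC and was 2.75-fold higher than at E14.5 (edgeR adjusted p = 0.000559), and was not called against E12.5 (edgeR adjusted p = 0.576). Col16a1 was 4.46-fold higher in ISC than at E12.5 (edgeR adjusted p = 0.00057), at 0.726 ± 0.241 CPM in ISC and 0.166 ± 0.0497 CPM at E12.5, and was not called against E14.5 (edgeR adjusted p = 0.138). Against E12.5, Col8a1 was 4.02-fold higher in ISC, while Col9a1 was not called (edgeR adjusted p = 0.984). Col8a1, whose short chains form networks, and Col9a1 were higher than at E14.5, at 0.702 ± 0.170 and 0.968 ± 0.277 CPM in ISC, against 0.208 ± 0.0531 and 0.432 ± 0.0934 CPM at E14.5. Per kilobase, Col10a1 at 1.44 ± 0.279 and Col20a1 at 1.23 ± 0.268 led the family in ISC, and their intervals of mean and SD overlapped. Col23a1 had 4.94, 3.00 and 2.44 CPM in ISC and was not called against E14.5 (edgeR adjusted p = 0.0690), nor were Col7a1 (1.52, 2.02 and 1.70 CPM) and Col17a1 (2.47, 0.708 and 1.09 CPM).

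**Figure D5:**
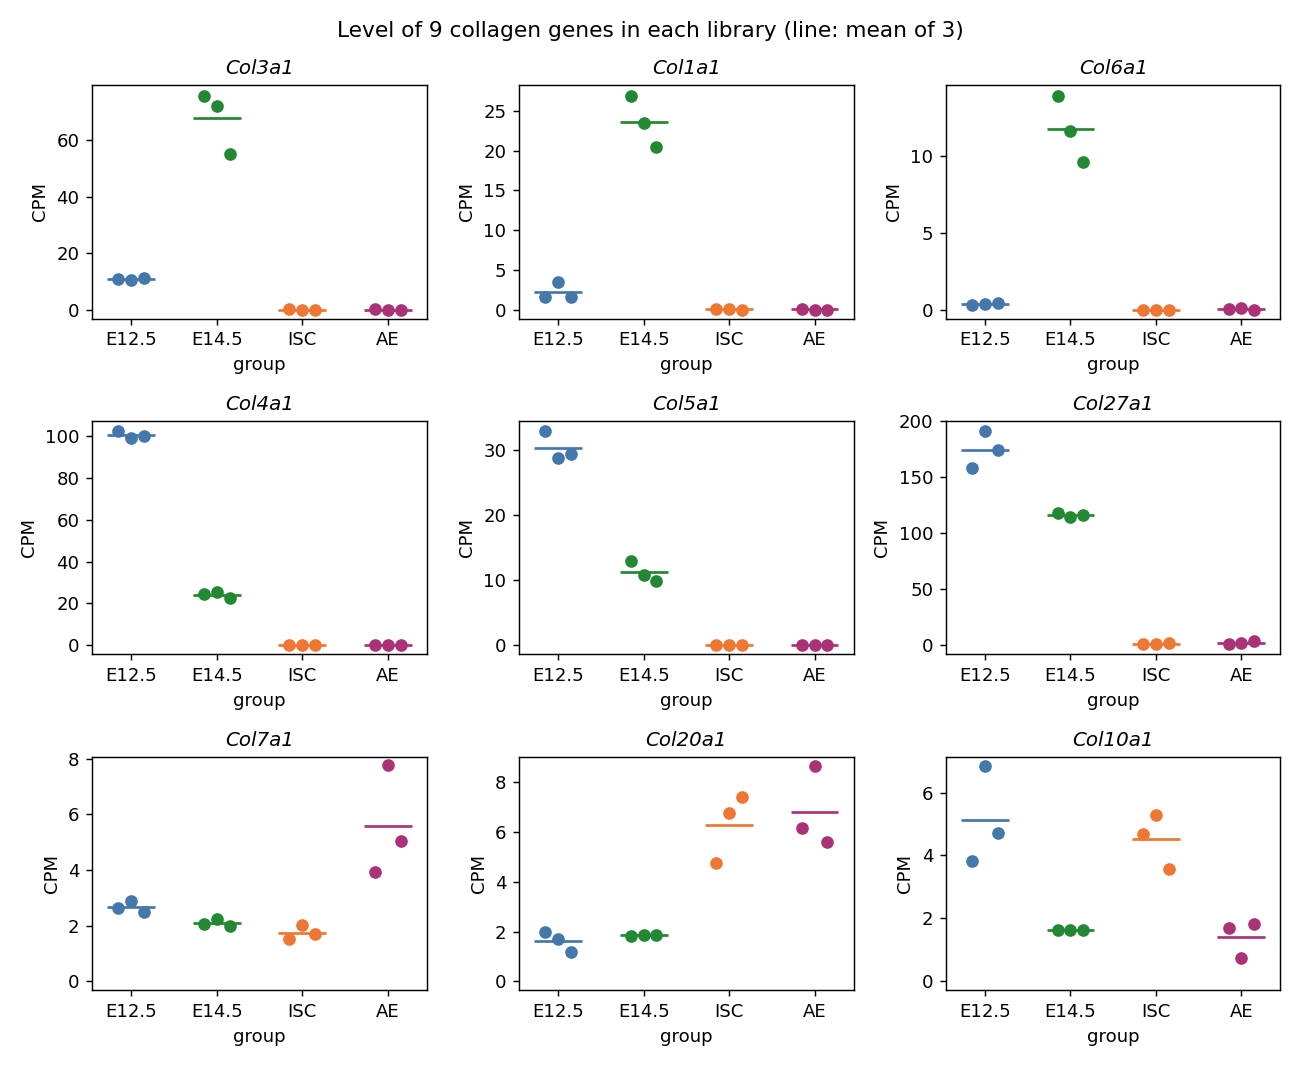
CPM of 9 collagen genes in each library (points) and the mean of 3 (lines) in E12.5, E14.5, ISC and AE, each panel with its own linear axis. Col3a1, Col1a1 and Col6a1 peak in the E14.5 libraries, Col4a1, Col5a1 and Col27a1 in the E12.5 libraries, Col7a1 in AE, Col20a1 in both adult groups, and Col10a1 in E12.5 and ISC.

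Between villus and stem cells, 6 of 38 tested members were higher and 4 lower in AE than in ISC by edgeR, and 28 were not called, where 32.6% of all genes tested were higher and 35.2% lower. The median log2 fold change was 0.08 over the members, 0.02 with members at 0 counts at their bound, and -0.05 over all genes. For 13 of the 38, which had passed the filter through the embryonic groups, both adult groups held at most 3 counts, so a missing call says nothing of them. Col6a1 was among these 13 and was still called higher, on 3 counts in AE and none in ISC (edgeR adjusted p = 0.0474). The number of members called higher was 3 when only the 6 AE and ISC libraries were fitted. Col7a1, which forms the anchoring fibrils under epithelia, had 3.92, 7.76 and 5.03 CPM in AE, against 1.52, 2.02 and 1.70 CPM in ISC, with every AE library above every ISC library. The rise was 3.14-fold (log2 1.65, SE 0.264, edgeR adjusted p = 7.20e-05). Within the split in read listing, Col7a1 was also 2.62-fold higher in AE than at E14.5 (edgeR adjusted p = 0.000148). Col17a1, the transmembrane collagen of the hemidesmosome, had 3.01, 2.53 and 2.17 CPM in AE, against 2.47, 0.708 and 1.09 CPM in ISC, and was called 1.89-fold higher although the groups overlapped (edgeR adjusted p = 0.0391). That call was lost with upper-quartile scaling, with only the 6 libraries compared, and without ISC replicate 2 or 3 or AE replicate 1 or 2, at edgeR adjusted p from 0.0501 to 0.154.

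Col25a1 had 1.72, 1.23 and 2.63 CPM in AE, against 0.253, 0.817 and 0.870 CPM in ISC, and rose 2.66-fold (edgeR adjusted p = 0.00414). Col6a5 had 1.23, 1.63 and 1.14 CPM in AE, against 0.0634, 0 and 0.0435 CPM in ISC, a ratio of 37.5 with an exact 95% counting interval of 9.97 to 316 (edgeR adjusted p = 1.22e-05). Col6a3 and Col6a1 were called on 5 and 3 counts in AE and none in ISC (edgeR adjusted p = 0.0115 and 0.0474). Per kilobase, Col6a5 averaged 0.143 ± 0.0282 CPM in AE, and the other 5 type VI chains at most 0.0123. In CPM, Col6a1 had 0.0701, 0.0817 and 0 in AE, Col6a2 had 0.0350, 0 and 0, Col6a3 had 0.105, 0.0817 and 0.114, Col6a4 had 0, 0.0817 and 0, and Col6a6 had 0, 0.0817 and 0.228. Lower in AE than in ISC were Col10a1 (1.68, 0.735 and 1.83 CPM in AE), Col9a1, Col16a1 and Col23a1, by 2.26 to 6.82-fold. Col23a1 had 2.28, 0.163 and 1.71 CPM in AE, and its call was lost with only the 6 libraries compared and without ISC replicate 1, AE replicate 2 or AE replicate 3, at edgeR adjusted p from 0.0623 to 0.147. Col20a1 had 6.17, 8.66 and 5.60 CPM in AE, was not called against ISC (edgeR adjusted p = 0.716) and led the family in AE at 1.32 ± 0.317 CPM per kilobase, with Col7a1 next at 0.602 ± 0.214 and Col17a1 at 0.460 ± 0.0757.

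Against E14.5, 28 members were lower and 3 higher in AE, with 7 not called, where 41.5% of all genes tested were lower and 36.7% higher. The median log2 fold change was -4.78 over the members, or -3.19 at the bounds, and -0.12 over all genes. The 3 higher were Col20a1 (3.69-fold), Col8a1 (3.69-fold) and Col7a1. Col3a1 had 1 count in AE, Col1a1 had 2, Col5a1 had 1, and Col2a1, Col5a2 and Col11a1 had none. Col1a2 had 0.245, 0 and 0 CPM, all of it in AE replicate 1, and was 134-fold lower than at E14.5. Col4a1 had 0, 0 and 0.228 CPM in AE on 2 counts and Col4a2 had 0.280, 0.490 and 0.228 CPM on 16. Col4a5 had 0.0701, 0 and 0.114 CPM, Col4a6 had 0.0701, 0.0817 and 0.114 CPM, Col4a3 had 2.28, 1.23 and 3.31 CPM and Col4a4 had 0.315, 0.163 and 0.343 CPM. Col27a1 had 1.65, 1.88 and 3.65 CPM in AE and was 53.3-fold lower than at E14.5 (edgeR adjusted p = 9.38e-11). Col18a1 had 1.51, 3.35 and 1.37 CPM in AE, was 1.79-fold lower (edgeR adjusted p = 0.0382) and overlapped with E14.5, and this call was lost with limma-voom, with only the 6 libraries compared and without E14.5 replicate 1 or 3 or AE replicate 1 or 3 (adjusted p from 0.0576 to 0.195). Col12a1 had 0.210, 0 and 0 CPM and Col14a1 had 0.421, 0.0817 and 0.114 CPM in AE. The 21 mesenchyme markers summed to 120, 299 and 282 CPM in AE, which overlaps with the 296 to 365 CPM of the E14.5 libraries. Fbln1 alone averaged 193 ± 93.2 CPM in AE. Without it the sums were 33.9, 39.5 and 49.0 CPM in AE, of which Prrx1 gave 26.1 ± 7.41 CPM, and Acta2 stood at 0.510 ± 0.479 CPM there.

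Genes that make, link and bind collagen were set beside the chains, with the most abundant of each list named. Lox, Nid1, Nid2, Sparc, Ddr2, Mmp2 and Lama3 are not among those and were chosen after their values were seen. The counts of each list stand beside those over all genes tested, of which 23.6% were higher and 25.6% lower at E14.5 than at E12.5, 30.2% higher and 30.6% lower in ISC than at E14.5, and 32.6% higher and 35.2% lower in AE than in ISC. Of 19 folding and modification genes, 18 were tested, and 3 were higher and 7 lower at E14.5 than at E12.5. Mia3 was listed at 0 in every library. Plod2, whose enzyme hydroxylates the lysines used for crosslinks in fibrillar collagen, was at 389 ± 36.8 CPM at E14.5 and 138 ± 12.6 CPM at E12.5. P4ha3, a prolyl hydroxylase subunit, was at 2.51 ± 0.0792 CPM at E14.5 and 124 ± 11.5 CPM at E12.5. Serpinh1, encoding the collagen chaperone HSP47, was 1.51-fold lower at E14.5, at 65.7 ± 2.22 CPM in E14.5 libraries and 99.3 ± 3.26 CPM in E12.5 libraries. In the adult groups, Plod2 averaged 2.14 ± 0.835 CPM in ISC and 0.707 ± 0.751 CPM in AE, and Serpinh1 averaged 0.417 ± 0.268 CPM in ISC and 0.0272 ± 0.0472 CPM in AE, where it had 1 count. Against E14.5, 13 of the 18 were lower and 1 higher in ISC. P4hb, which also serves protein folding at large, averaged 2580 ± 299 CPM in AE and 370 ± 46.6 CPM in ISC.

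Among 14 processing and crosslinking genes, 10 were tested, with 1 higher and 6 lower at E14.5 than at E12.5. The higher one was Lox, the enzyme that crosslinks fibrillar collagen, at 1.90 ± 0.506 CPM at E14.5 and 0.0744 ± 0.0629 CPM at E12.5, where it had 6 counts. Pxdn, which crosslinks type IV collagen, was 2.75-fold lower, at 99.5 ± 6.82 CPM at E14.5 and 274 ± 8.78 CPM at E12.5 (edgeR adjusted p = 4.45e-07). Bmp1, which trims procollagen ends, was 3.20-fold lower, at 13.1 ± 0.274 CPM at E14.5 and 42.1 ± 3.37 CPM at E12.5. Loxl2, of the same enzyme family as Lox, was at 35.1 ± 3.69 CPM at E14.5 and 75.0 ± 4.05 CPM at E12.5, a 2.13-fold fall. In ISC, Lox had no count and Pxdn averaged 29.5 ± 4.39 CPM, and in AE, Lox had no count and Pxdn averaged 7.17 ± 1.04 CPM.

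Of 8 other partners of the basement membrane, all tested, 3 were higher and 3 lower at E14.5 than at E12.5. Over all genes tested, 23.6% were higher and 25.6% lower. Hspg2, encoding perlecan, was 2.91-fold lower, at 174 ± 15.3 CPM at E14.5 and 507 ± 52.2 CPM at E12.5. Nid1, which links laminin to type IV collagen, was 6.98-fold higher, at 15.8 ± 1.05 CPM at E14.5 and 2.29 ± 0.832 CPM at E12.5. Smoc2, a matricellular protein, was 9.53-fold higher, at 15.9 ± 1.08 CPM at E14.5 and 1.77 ± 1.98 CPM at E12.5, and Dag1, encoding the laminin receptor dystroglycan, was 1.31-fold lower. Agrn, encoding the heparan sulfate proteoglycan agrin, was not called (edgeR adjusted p = 0.238). Nid1's relative Nid2 was 2.62-fold higher at E14.5 and reached 24.3 ± 1.5 CPM in ISC, where Nid1 averaged 0.188 ± 0.132 CPM. Sparc, a collagen-binding secreted protein, averaged 60.7 ± 9.01 CPM at E14.5 and 87.0 ± 9.88 CPM at E12.5, and 0.0845 ± 0.146 CPM in ISC, on 4 counts.

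Of 10 receptors for collagen, 8 were tested, and against E14.5, 4 were higher and 4 lower in ISC. Itga1, the alpha chain of a collagen-binding integrin, averaged 80.6 ± 10.1 CPM in ISC and 3.66 ± 0.721 CPM at E14.5, a 21.7-fold rise (edgeR adjusted p = 6.28e-11), and was 87.1-fold higher in ISC than at E12.5. Itga2, the other main epithelial one, averaged 119 ± 7.91 CPM in ISC and 44.6 ± 0.142 CPM at E14.5. Itgb1, the beta chain that pairs with both, was 1.78-fold lower in ISC, and the receptor kinase gene Ddr1 was 1.36-fold higher. Ddr2, a receptor kinase for fibrillar collagen, averaged 4.64 ± 0.380 CPM at E14.5 and 0.436 ± 0.0456 CPM at E12.5, a 10.6-fold rise (edgeR adjusted p = 5.53e-06). Of 13 degrading proteases and their inhibitors, 9 were tested, with 2 higher and 4 lower at E14.5 than at E12.5. Mmp2, a gelatinase, was 7.11-fold higher, at 5.27 ± 0.769 CPM at E14.5 and 0.735 ± 0.0895 CPM at E12.5, and Mmp14, a membrane-bound protease, was 2.13-fold lower. Mmp15, its relative, was 1.64-fold lower. Of the inhibitors, Timp2 was 3.99-fold lower, at 19.0 ± 1.54 CPM at E14.5 and 76.1 ± 9.62 CPM at E12.5, and Timp3 was 2.11-fold higher.

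Beside the anchoring chains Col7a1 and Col17a1, 8 partners of the hemidesmosome, the junction that holds epithelium to its basement membrane, were all tested. Between AE and ISC, 5 were higher and 1 lower in AE. Lama3 averaged 235 ± 96.4 CPM in AE and 2.22 ± 0.457 CPM in ISC, a 105-fold rise (edgeR adjusted p = 2.56e-08). Itgb4, the integrin chain of the junction, averaged 375 ± 82.9 CPM in AE and 157 ± 10.4 CPM in ISC, a 2.38-fold rise, and Plec, its link to keratin, averaged 878 ± 314 CPM in AE and 160 ± 13.4 CPM in ISC. Dst, a plakin gene like Plec, averaged 578 ± 177 CPM in AE and 104 ± 5.34 CPM in ISC. Itga6, which pairs with Itgb4, was the one lower, 1.52-fold.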

How the data were processed

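The 12 RNA-seq libraries fall into E12.5, E14.5, ISC and AE, 3 each. Sorted cells (50000 per library) gave RNA, of which 50 ng went into amplified cDNA, per the labels' protocols. Each library has a deposited file of raw read counts for every gene symbol, with no normalisation by the authors, and gene counts summed to between 12587626 and 45190749 per library. Per the submitters' processing notes, the tools were STAR 2.3.1z13, HTSeq 0.6.1p1, bcl2fastq 1.8.4, DESeq2 1.6.3 and SAMtools 1.2, with the mm9 build. Neither the annotation nor the strand setting is given in the sources used here. The 5 closing entries that name no gene stayed out of library sizes and tests, with reads outside genes at 33.4% to 58.1%, which differs between groups, and ambiguous reads at 0.531% to 1.00%.

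Groups were taken from the sample titles. Counts were tested with edgeR 4.0.16 (R 4.3.3), filterByExpr, TMM and quasi-likelihood F tests, with 1 coefficient per group over all 12 libraries and no covariate, and Benjamini-Hochberg adjustment over 15342 genes at 0.05. The common biological coefficient of variation was 0.154. Folds come from the fit where both groups hold over 3 counts. A group at 0 gives a bound against 3 counts over its libraries, and a group with 1 to 3 counts gives a ratio of summed counts per effective library size with an exact 95% interval. Amplified reads are not independent molecules, so intervals and floors cover counting error only. Each replicate was its own pool of embryos or its own adult gut, per the labels' protocols. No 2 replicates agreed within sampling noise (chi-square per degree of freedom 3.38 to 138), and all were kept.

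Exon lengths, shared 50-base stretches and exon positions came from a later build than mm9, and promoter sequences from RefSeq. Full values are given for the 27 members with a mean of at least 5 CPM in some group or of types IV, VII and XVII, and the other 17 by range or count, except that Col11a2, Col6a5, Col6a6, Col8a1, Col9a1, Col15a1 and Col16a1 are given with values and were chosen after these were seen. Collagen classes, gene lists and members were chosen with earlier results of these data known. The test was also run on simulated counts with known changes. Alternatives were RLE and upper-quartile scaling, DESeq2 1.42.0, limma-voom (limma 3.58.1), no filter, only the 6 libraries compared, a replicate block and leaving out each replicate.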

Additional observations from a re-analysis of the deposited data

How the results depend on the processing

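The 10 counts of collagen genes called in a direction were recomputed under each alternative, giving 130 values, of which 1 moved by over 1.5 times. The count higher in AE against ISC was 6, and 3 with only the 6 libraries compared. Leaving out 1 replicate gave 10 to 11 higher and 12 to 16 lower for E14.5 against E12.5, 3 to 5 higher and 24 to 25 lower for ISC against E14.5, 4 to 7 higher and 3 to 5 lower for AE against ISC, 4 higher and 26 to 28 lower for ISC against E12.5, and 3 higher and 25 to 27 lower for AE against E14.5. Over all genes, same-numbered replicates showed little common deviation (correlations of -0.0663 to 0.0796). This does not exclude that libraries of the same number were paired. With the replicate block the counts higher and lower were 11 and 15, 4 and 27, 5 and 4, 4 and 28, and 3 and 28 in the same order of comparisons.

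Single genes were recomputed only among the 27 members given with full values. Both groups had to hold over 3 counts, and 1 of them had to average at least 1 CPM. Calls of other members, such as Col24a1, Col11a2 and Col16a1, were not recomputed singly. This gave 77 fold changes recomputed 1001 times, of which 948 kept direction and side of the threshold, 25 lost the call, 17 gained it and 11 changed sign. The sign changed only where the gene was not called. In E14.5 against E12.5 without E12.5 replicate 3, Col20a1 was at -0.003 and Col23a1 at -0.004 (log2). In AE against ISC, Col20a1 was at -0.093 with upper-quartile scaling, -0.061 without ISC replicate 1 and -0.063 without AE replicate 2. In ISC against E12.5, Col10a1 was at 0.08 without E12.5 replicate 2, and Col17a1 at 0.243 and 0.072 without ISC replicate 2 and 3. In AE against E14.5, Col10a1 was at 0.084 without AE replicate 2, and Col4a3 at -0.13 with upper-quartile scaling and -0.158 without AE replicate 3. Over all single omissions, the ranges of these 7 values were -0.003 to 0.376 and -0.004 to 0.209 in E14.5 against E12.5, -0.063 to 0.275 in AE against ISC, -0.354 to 0.08 and -0.684 to 0.243 in ISC against E12.5, and -0.425 to 0.084 and -0.158 to 0.378 in AE against E14.5. The cause was not tested. Upper-quartile scaling moved the median log2 change of all genes to -0.251 in AE against ISC and -0.365 in AE against E14.5. Depth limits the adult groups most, where 22 members in ISC and 19 in AE had at most 3 counts.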
